A study of Mus musculus with 30 samples.

Results

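The livers described here came from the untreated arm of a feeding study in diabetic mice, named Ctrl. They made up 15 of the 30 arrays of the series and were chosen by their sample title and by the agent recorded for them, which was control. Each array held liver RNA of 1 male mouse of the strain BKS.Cg-m+/+Leprdb/J 000642, homozygous for the db mutation. The mice were between 6 and 8 weeks old when they arrived, had 2 weeks to settle in, ate unsupplemented chow for 42 days, were housed singly and were killed after a 6 h fast. All 15 shared the leptin receptor mutation, so no lean mouse entered. The other 15 mice ate the same chow with sebacic acid, and no value of theirs is reported. One protocol field names sebacic acid for the Ctrl samples too, while title and agent both say control. The question was which transcripts were brightest, which differed most between mice of the same treatment, and which rose and fell together.

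A db/db mouse lacks the signalling form of the leptin receptor, overeats, and becomes obese and diabetic, with a liver that makes much fat. The hepatocyte secretes most plasma proteins, builds cholesterol through genes switched on by SREBP-2 when sterols run short, and turns cholesterol into bile acids by way of Cyp7a1. Kupffer cells, the macrophages of the liver, show antigen on MHC class II, and interferon gamma induces that machinery together with guanylate-binding proteins and chemokines.

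Signals were read on Illumina MouseRef-8 beads, quantile normalized over the 15 arrays and put on the log2 scale. A probe counted as detected where its detection p-value, which compares it with negative control beads, was under 0.05. Of 25697 probes, 9513 were detected on all 15 arrays and 11438 on none. The detected probes with a gene name stood for 6799 genes, each read from its brightest such probe. Mean raw intensity ran from 314 to 451 per array and the number of detected probes from 10984 to 11697. Each pair of arrays correlated at 0.987 to 0.995 over all probes (105 pairs). Of 16 hepatocyte markers, 15 were on the array and 14 were detected in every mouse. None of the 4 cholangiocyte, 9 neutrophil, 14 lymphocyte, 13 exocrine pancreas and 6 skeletal muscle markers on the array was detected in every mouse. Cela2a and Cpa1 of the pancreas, Mpo of neutrophils, Cd79a of B cells and Ckm of muscle were detected on no array.

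2 groups of genes that moved together are introduced first by the sequence before their start sites, because genes of sterol synthesis and of the interferon response are known to be switched on through such sites. The stretches are RefSeq promoter sequence of mouse build GRCm38.p6, 5′ to 3′ along the gene, and capitals mark motif matches on either strand. For sterol synthesis the motifs were the CCAAT box (CCAAT, the site of the factor NF-Y) and the SREBP site known from the LDL receptor (TCACNCCAC).
Hmgcs1, chr13:119690104-119690320, plus strand: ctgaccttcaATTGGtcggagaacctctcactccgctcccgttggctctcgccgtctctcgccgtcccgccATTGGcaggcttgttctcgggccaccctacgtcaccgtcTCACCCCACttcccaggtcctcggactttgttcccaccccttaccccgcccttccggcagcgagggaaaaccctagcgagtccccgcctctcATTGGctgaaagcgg
Lss, chr10:76531533-76531557, plus strand: tgatgctctgATTGGccgagctcgc
Dhcr7, chr7:143830119-143830179, plus strand: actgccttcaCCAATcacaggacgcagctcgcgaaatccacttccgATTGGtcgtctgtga
In Hmgcs1 the SREBP match began at position -137 from the start site. For interferon genes the motifs were the interferon-stimulated response element (TTTC, any 2 bases, TTTC) and the gamma-interferon activation site (TTCNNNGAA).
Gbp2, chr3:142620594-142620623, plus strand: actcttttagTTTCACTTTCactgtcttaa
Igtp, chr11:58199501-58199541, plus strand: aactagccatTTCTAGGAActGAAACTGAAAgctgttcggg
Irgm2, chr11:58214892-58214932, plus strand: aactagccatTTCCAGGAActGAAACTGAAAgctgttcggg
Irf1, chr11:53769914-53769942, plus strand: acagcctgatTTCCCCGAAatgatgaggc
The marked motifs in these lines share no bases. How often each motif stood before other genes is given with the groups.

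The brightest transcripts encoded secreted plasma proteins, apolipoproteins and enzymes of the hepatocyte, and they differed little between mice. The 20 brightest genes were Serpina1b, Gpx1, Apoc3, Trf, Hpx, Fth1, Hp, Kng1, Apoa2, Gnmt, Ambp, Serpina1d, Mat1a, Fga, Serpina1c, Rpl41, Apoc1, Ahsg, Cyp2e1 and Atp5g3. Their mean log2 signals lay between 14.53 and 14.93 and their SDs between 0.04 and 0.13 (n = 15). Serpina1b, one of the antitrypsin genes, read 14.87 in the lowest mouse and 14.96 in both the median and the highest. It was the brightest probe on 9 of 15 arrays. Gpx1, glutathione peroxidase, ranged from 14.79 through a median of 14.90 to 14.96. Apoc3, an inhibitor of triglyceride clearance, ranged from 14.73 through 14.84 to 14.90. Apoc1 was the most variable of the 20, with 14.29 in mouse 7, a median of 14.65 and 14.79 in mouse 13, or 1.42-fold. Quantile normalization gives every array the same set of top values, so the small SDs of the first few ranks are partly set by that step. Before it, the intensity of Serpina1b ran from 24337 to 35474. The Serpina1 genes are near copies of each other, and their probes may read more than 1 of them.

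**Figure D1:**
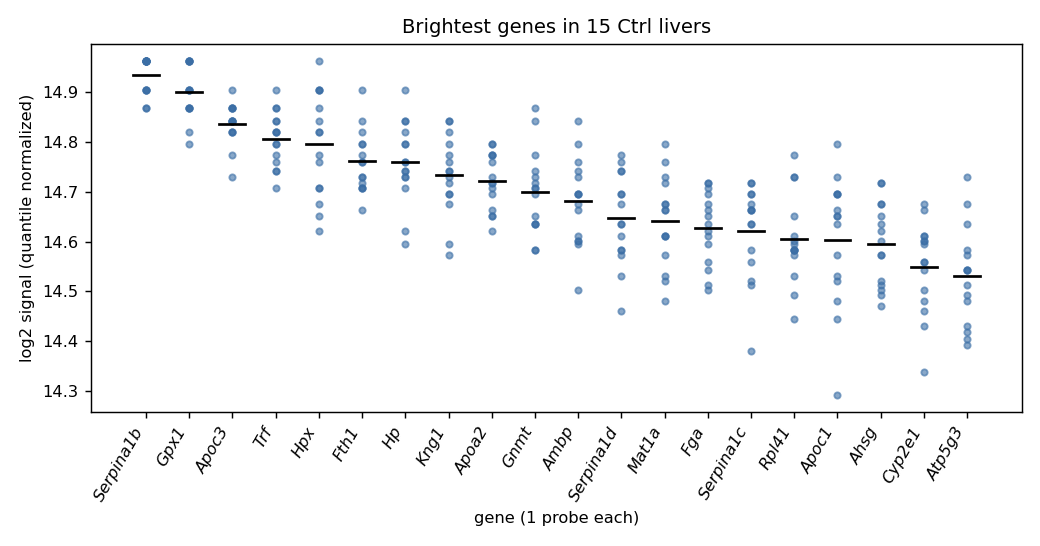
Normalized log2 signal (vertical axis) of the 20 brightest genes (horizontal axis), 1 point per Ctrl mouse and a bar at the mean. Points at the top fall on shared values because the normalization gives each array the same highest values, and mean signals run from 14.93 for Serpina1b to 14.53 for Atp5g3.

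Outside the brightest genes, the steadiest transcripts above the median signal included mitochondrial ones. Chchd10 had an SD of 0.04 at a mean of 14.23, and Ndufa9, a subunit of respiratory complex I, had 0.05 at 12.14. Azgp1, Rab3gap1, Mrpl18 and Ovca2 were also among the 10 steadiest, none of which passed 1.15-fold between its highest and lowest mouse. In the lists of respiratory chain genes and of cytosolic ribosomal proteins, 0 of 21 and 0 of 15 detected members reached 2-fold. Over all genes 6.24% did, so with lists of this size a count of 0 is near the background.

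Most transcripts differed little between mice, while a small share differed widely. The median SD over the 6799 genes was 0.14 on the log2 scale (interquartile range 0.11 to 0.18), and the median ratio of highest to lowest mouse was 1.41. In 424 genes (6.24%) the highest and lowest mouse were at least 2-fold apart, and in 38 at least 4-fold. Between the second highest and second lowest mouse 147 genes reached 2-fold. With genes split into 4 equal classes by mean signal, the share at 2-fold was 2.76% in the dimmest class, then 5.94% and 8.00%, and 8.24% in the brightest. Mouse 2 was the highest mouse for 69 of the 424 genes, more than any other mouse, and mouse 6 the lowest for 51.

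**Figure D2:**
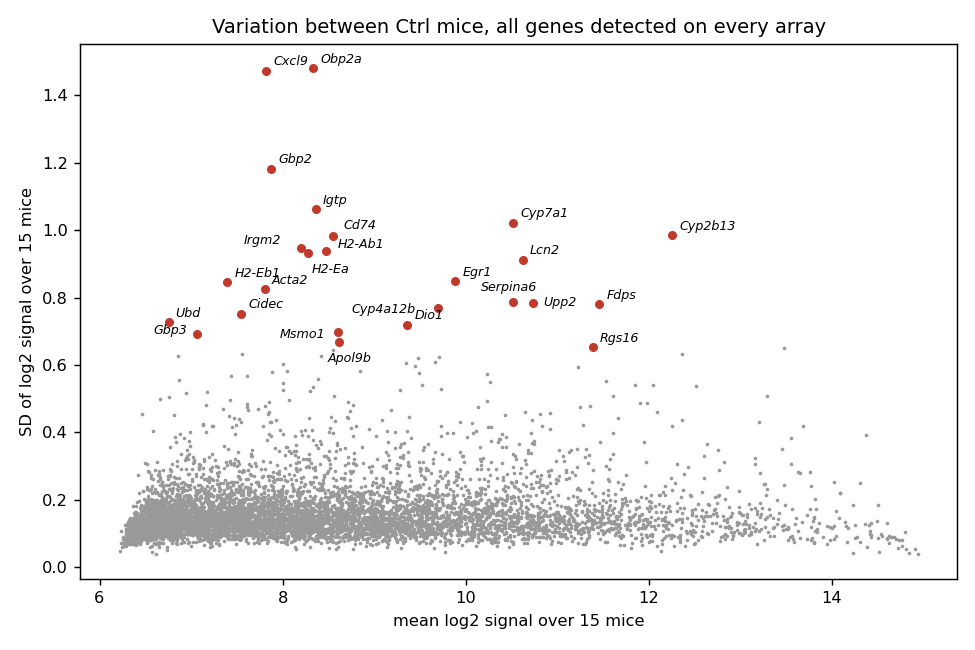
SD of log2 signal over 15 Ctrl mice (vertical axis) against mean log2 signal (horizontal axis), with 1 grey point per gene and the 25 most variable genes in red. The red genes have SDs of 0.65 to 1.48 and means of 6.75 to 12.25, whereas the median gene has an SD of 0.14.

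The list of 25 most variable genes was led by Obp2a, a lipocalin, and by interferon-induced genes. Obp2a read 6.66 in mouse 9, a median of 7.96 and 12.46 in mouse 4, which is 55.9-fold from lowest to highest. Mouse 4 stood far above the rest, and the SD of 1.48 fell to 0.98 without it. Cyp2b13, a cytochrome P450 that is higher in female livers, ran from 10.08 in mouse 5 and 10.27 in mouse 4 through a median of 12.71 to 13.28 in mouse 12. Its SD was 0.99, and mice 4 and 5 were apart from the others at the low end. Acta2, smooth muscle actin, was at 10.57 in mouse 14 and at 7.10 to 8.07 in the other mice, with a median of 7.63. Its SD of 0.83 became 0.32 without mouse 14. Des, a further muscle filament gene, was also highest in mouse 14, at 7.45 against a median of 6.49. Of the 7 detected stellate and matrix markers, 4 were above their own means in mouse 14, and Rgs5 of that list was lowest there, at 6.32.

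Lcn2, an acute phase lipocalin that binds bacterial iron carriers, spread evenly from 9.11 in mouse 12 through 10.45 to 12.09 in mouse 7, or 7.86-fold. Egr1, an immediate early transcription factor, ran from 8.11 in mouse 10 through 9.85 to 11.17 in mouse 5. Rgs16, a brake on G protein signalling that varies with time of day and feeding in liver, ran from 9.96 in mouse 10 through 11.40 to 12.13 in mouse 12. Egr1, Rgs16, Fgf21 and Eif4ebp3 formed a small cluster of their own. Dio1, which activates thyroid hormone, ranged from 7.97 in mouse 9 through 9.23 to 10.75 in mouse 12. Cidec, a lipid droplet protein, ranged from 6.40 in mouse 7 through 7.72 to 8.88 in mouse 14. Cyp4a12b, a male-biased fatty acid hydroxylase, ranged from 8.06 in mouse 12 through 9.93 to 10.44 in mouse 10, so that its low mouse was the highest for Cyp2b13. The time of day of each dissection is not given in the sources used here, so its part in these spreads was not tested.

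Second probes for the same gene gave a measure that the ranking had not used. Among 1641 genes with more than 1 detected probe, the correlation of the pair over 15 mice had a median of 0.50. Among the 90 of them that reached 2-fold the median was 0.91, and in 19 genes of the 100 most variable it was 0.94, with all 19 above 0.8. For Cd74 the probes correlated at 0.99, for Upp2 at 0.98, for Gbp3 at 0.98 and for Dio1 at 0.85.

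Clustering of the 100 most variable genes (average linkage on 1 minus Pearson r, joined up to a height of 0.4) put 51 of them into 3 clusters of at least 5 genes. The largest held 28 genes, among them interferon-induced, MHC class II and macrophage genes and the acute phase gene Saa3. The second held 13 genes around Cyp7a1, and the third held 10 genes, most of them of sterol synthesis. Since the clusters were drawn from these values, their correlations are descriptions with no test.

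**Figure D3:**
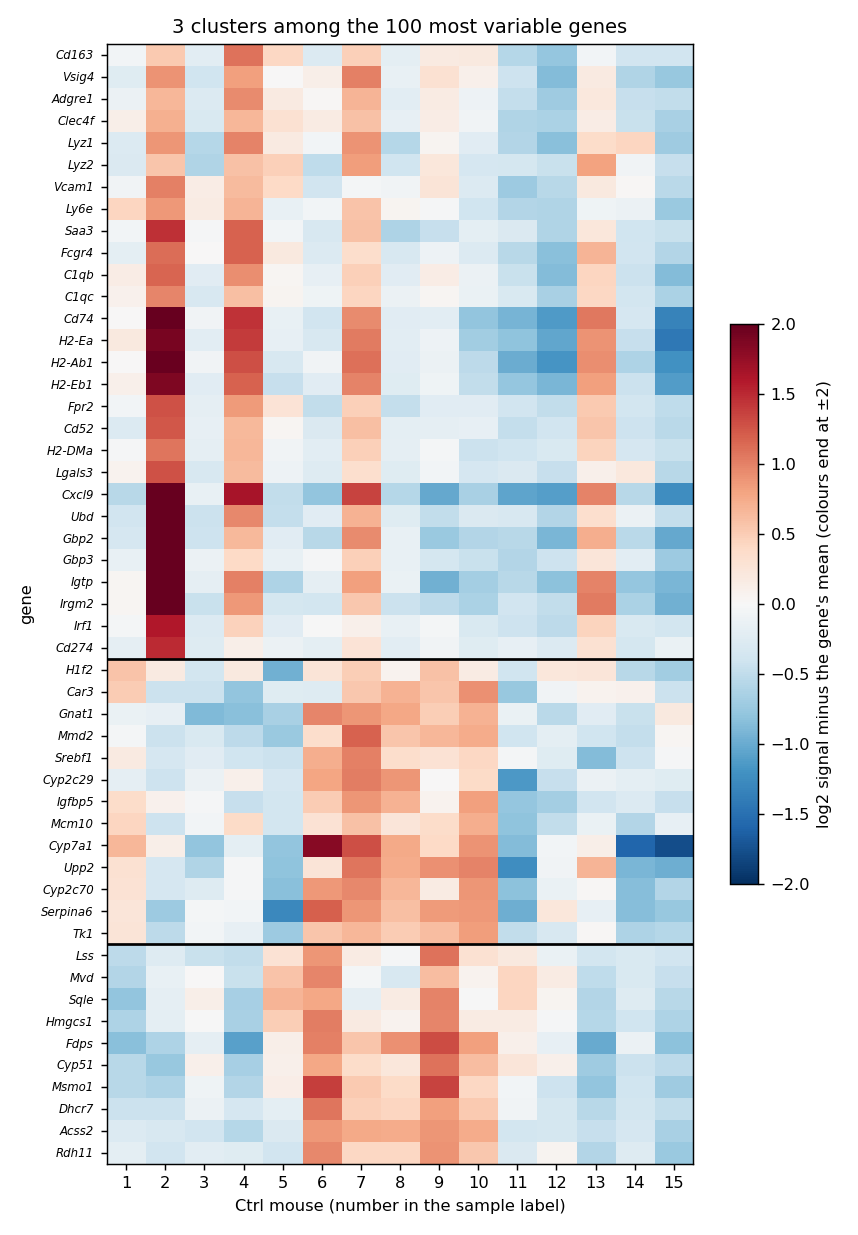
Log2 signal minus the gene's own mean (colour, red above and blue below, ending at 2 in either direction) for the 51 clustered genes (rows, black lines between clusters) in 15 Ctrl mice (columns). Mice 2, 4, 7 and 13 are red in the upper block of 28 genes, mice 6 to 10 in the middle block of 13, and mice 6 and 9 most deeply in the lower block of 10.

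The interferon and macrophage cluster was high in 4 mice. Averaged over its 28 genes, mouse 2 stood 1.59 above the mean on the log2 scale, mouse 4 0.88, mouse 7 0.64 and mouse 13 0.50, while every other mouse was below 0 and mouse 15 was lowest at -0.72. All 28 genes were above their own means in mice 2 and 4, 27 in mouse 7 and 26 in mouse 13. Cxcl9, a chemokine that draws T cells, read 6.58 in mouse 15, a median of 7.27 and 12.03 in mouse 2, or 43.8-fold. Gbp2, a guanylate-binding GTPase, read 6.85 in mouse 15, a median of 7.45 and 11.58 in mouse 2, or 26.5-fold. Igtp, a GTPase that acts on vacuoles of intracellular parasites, read 7.40 in mouse 9, a median of 8.18 and 11.33 in mouse 2. In each of these genes mouse 2 was alone at the top, followed by mice 4, 7 and 13. Without mouse 2 the SD of Cxcl9 fell from 1.47 to 0.94, that of Gbp2 from 1.18 to 0.61, that of Igtp from 1.06 to 0.70, that of Irgm2 from 0.95 to 0.60, that of Ubd from 0.73 to 0.47 and that of Gbp3 from 0.69 to 0.35.

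The MHC class II genes moved almost as 1 gene and did not rest on mouse 2. Cd74, the invariant chain, read 7.22 in mouse 15, a median of 8.34 and 10.66 in mouse 2. H2-Ab1, a class II beta chain, read 7.27 in mouse 15, a median of 8.36 and 10.45 in mouse 2. The SD of Cd74 was 0.98 with all mice and at least 0.82 with any mouse left out. All 5 detected class II genes of 7 on the array reached 2-fold, against 6.24% of all genes, and their median pairwise r was 0.98, against 0.0044 over all pairs of genes. With mouse 2 or any other mouse left out it stayed at 0.97 or above. H2-Aa was detected on no array.

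Kupffer cell markers rose and fell with these genes. C1qb, a chain of complement C1q made by macrophages, read 7.01 in mouse 12, a median of 7.77 and 9.05 in mouse 2. Clec4f, a lectin of Kupffer cells, read 7.21 in mouse 15, a median of 7.96 and 8.57 in mouse 2. Vsig4, a complement receptor of resident macrophages, read 7.19 in mouse 12, 8.06 and 9.05 in mouse 7. Of 7 detected markers of 12 on the array, 6 reached 2-fold, with a median pairwise r of 0.82. Their summed signal ran from 856 in mouse 12 through 1316 to 2420 in mouse 2. In whole liver RNA, more cells of a type and more RNA per cell cannot be told apart. None of the 14 lymphocyte markers on the array was detected in all mice. Of them 8 were detected on no array and the others on some arrays, so this does not show that lymphocytes were absent.

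In a limma regression of every other gene on C1qb, 90 of 6798 genes (1.32%) had an adjusted p under 0.05, 82 in the same direction (1.21%) and 8 in the opposite one (0.118%). They included all 6 other Kupffer markers, 5 of 5 class II genes and 5 of 12 interferon-stimulated genes. C1qc had an r of 0.99 (limma adjusted p = 3.54e-09), H2-Ea 0.97, H2-Ab1 0.96, H2-Eb1 0.96 and Cd74 0.95. The lowest correlations among those called were Ube2r2 at -0.82, Cs, the citrate synthase of the TCA cycle, at -0.82 and Aspg at -0.79. Without each mouse in turn the count lay between 61 and 94.

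Interferon-stimulated genes as a list were less uniform. Of 12 detected, 7 reached 2-fold, and without mouse 2 only 3 did. Their median pairwise r was 0.70 with all mice and 0.50 without mouse 2. Ifit3 and Usp18, which type I interferon also induces, were highest in mouse 2 at 9.07 and 8.77, against medians of 7.84 and 7.45. Ifit1 and Oas1a were detected on no array. Irf1, an interferon-induced transcription factor, read 9.21 in mouse 12, a median of 9.58 and 11.34 in mouse 2.

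The stretches of Gbp2, Igtp, Irgm2 and Irf1 above came from a search of the 250 bases before the start site. In this cluster 21 of 28 genes matched a promoter entry. The interferon-stimulated response element was in 6 of them (28.6%: Gbp2, Igtp, Irgm2, Gbp3, Saa3 and Fcgr4), against 3.46% of all 27025 genes. The gamma-interferon activation site was in 4 (19%: Igtp, Irgm2, Fpr2 and Irf1), against 8.13% of all genes. The printed stretches of Igtp and Irgm2 are nearly identical, so their matches to either motif are not independent of each other. A match is a description of these letters and no evidence of binding.

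The sterol cluster was highest in mice 6 and 9. Averaged over its 10 genes, mouse 9 stood 1.00 and mouse 6 0.97 above the mean on the log2 scale, with mice 10, 7 and 8 at 0.42, 0.32 and 0.30. Mouse 13 was lowest at -0.61. All 10 genes were above their means in mice 6 and 9, and none was in mice 1, 2, 4, 13, 14 and 15. Fdps, which makes farnesyl diphosphate, read 10.38 in mouse 4, a median of 11.35 and 12.76 in mouse 9, or 5.20-fold. Msmo1, a C4-methyl sterol oxidase, read 7.82 in mouse 13, a median of 8.52 and 9.99 in mouse 6. Sqle, squalene epoxidase, read 8.74 in mouse 1, a median of 9.52 and 10.52 in mouse 9. Hmgcs1, which forms HMG-CoA, read 11.86 in mouse 4, a median of 12.51 and 13.53 in mouse 6. In these genes mice 6 and 9 were the top pair, with the remaining mice spread below them.

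Beyond the cluster, 15 of the 18 detected genes of sterol synthesis and LDL uptake reached 2-fold, and their median pairwise r was 0.68 (0.63 to 0.72 with 1 mouse left out). Regression on Hmgcs1 called 18 genes (0.265%), 17 in the same direction (0.25%), of which 11 were among the 17 other list members. Sqle had an r of 0.95 (limma adjusted p = 4.67e-06), Lss 0.94, Mvd 0.93, Msmo1 0.93 and Acsl3, an acyl-CoA synthetase, 0.92. The single opposite gene was Grn, progranulin, at -0.83 (0.0147% of genes tested). Without mouse 6, or without mouse 13, 11 genes were called. Srebf2, which encodes SREBP-2, was detected in every mouse and did not reach 2-fold.

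All 8 cluster genes with a promoter entry held a CCAAT box in 250 bases, against 37.5% of all genes. The SREBP site was in 1 of the 8, Hmgcs1, against 1.22% of all genes, as the printed stretch shows. No match in the other 7 says only that these letters are not in that window. In the interferon and macrophage cluster, 10 of 21 genes held a CCAAT box (47.6%) and 1, Saa3, the SREBP site (4.76%). Neither interferon motif was found before the 8 sterol cluster genes.

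Genes around Cyp7a1 were high in the same run of mice, 6 to 10. Averaged over the 13 genes, mouse 7 stood 0.88 above the mean, mouse 10 0.72, mouse 6 0.64, mouse 8 0.58 and mouse 9 0.46. Mouse 1 was at 0.27, all others were below 0, and mouse 11 was lowest at -0.68. Cyp7a1, the rate-limiting enzyme of bile acid synthesis, read 8.75 in mouse 15, a median of 10.63 and 12.34 in mouse 6, or 12.0-fold. Serpina6, the corticosteroid-binding globulin of plasma, read 9.23 in mouse 5, a median of 10.49 and 11.71 in mouse 6. Upp2, a uridine phosphorylase, read 9.48 in mouse 11, a median of 10.71 and 11.81 in mouse 7. Cyp2c70, which makes muricholic acids, read 11.50 in mouse 14, a median of 12.33 and 13.32 in mouse 7. Mice 6 to 10 were above the gene's mean in all 4. Gnat1 and Cyp2c29 belonged to the same cluster, whose median pairwise r was 0.74, against 0.87 in each of the other clusters.

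The remaining bile acid genes did not share this pattern. Of 12 detected genes of bile acid synthesis and transport, 3 reached 2-fold (Cyp7a1, Slco1b2 and Abcg8, and 1 gene without mouse 12), and their median pairwise r was 0.07. Cyp8b1, which makes cholic acid, correlated with Cyp7a1 at 0.07 (Spearman rho 0.13, permutation p = 0.80, adjusted 0.92). Nr0b2 was detected on no array. Whether mice 6 to 10 shared a chip, a cage row or a day of dissection is not given in the sources used here. Mean raw intensity of the array correlated at 0.44 with Cyp7a1, 0.52 with Mcm10 of the same cluster, 0.13 with Fdps and 0.08 with Cxcl9. Within the cluster of Cxcl9 it reached 0.47 for Cd163 and 0.45 for Clec4f, and over the Kupffer list its median was 0.36, against 0.06 over all genes. These are descriptions over 15 arrays. The clusters were not redrawn with array brightness taken out, so its part in them was not tested. With mean raw intensity as a covariate, the counts of genes called on C1qb and on Hmgcs1 stayed within 1.5 times those without it. Regression of every gene on that intensity called 4 of 6799 genes (0.0588%) with limma, Ctdsp1, Tmem30a, Maea and Eif6, none of them in a cluster.

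**Figure D4:**
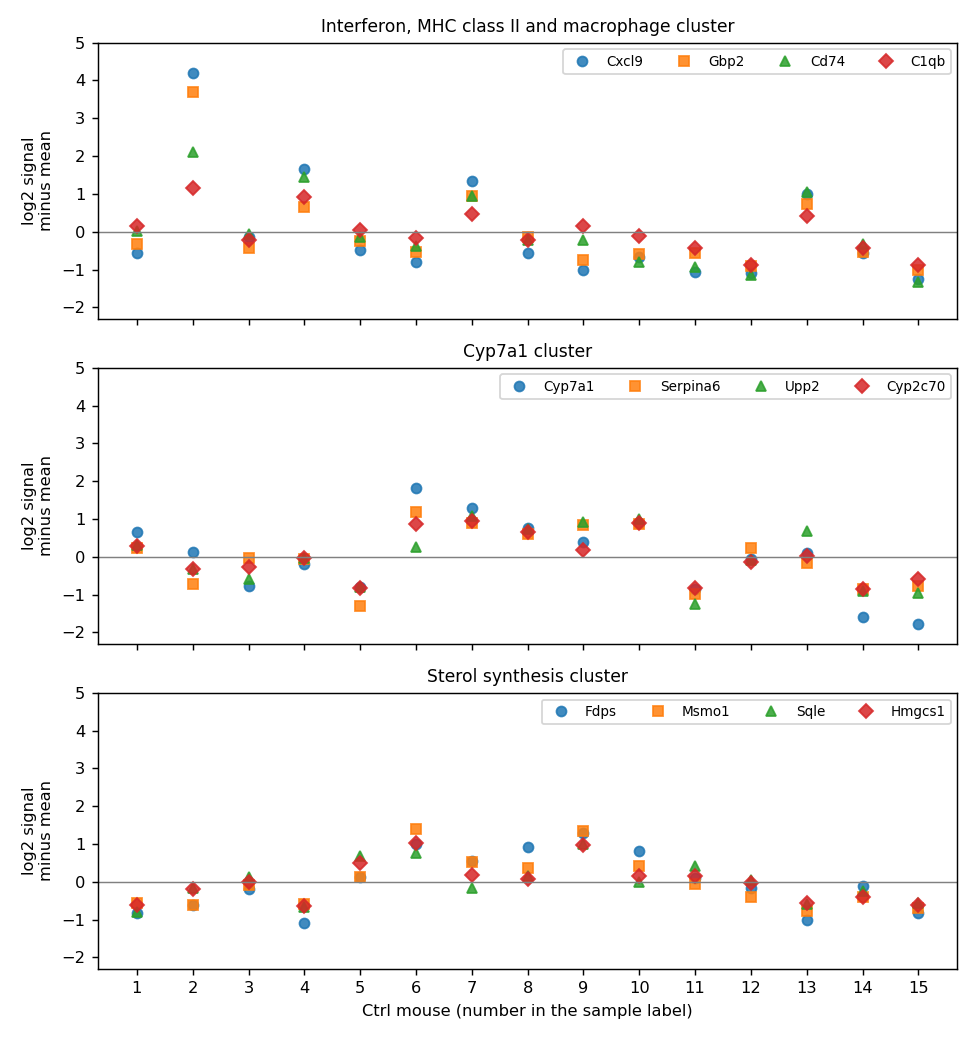
Log2 signal minus the gene's own mean (vertical axis) by Ctrl mouse (horizontal axis), with 4 genes of each cluster per panel. Mouse 2 is apart in the upper panel, most for Cxcl9, mice 6 to 10 lie above 0 in the middle panel, and mice 6 and 9 lead in the lower panel.

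Fatty acid synthesis varied in pieces. Scd1, the stearoyl-CoA desaturase, read 12.06 in mouse 11, a median of 13.74 and 14.22 in mouse 1. Elovl6, an elongase, read 9.10 in mouse 13, a median of 10.30 and 11.15 in mouse 7. Acly, which makes cytosolic acetyl-CoA, read 11.60 in mouse 1, a median of 12.28 and 13.02 in mouse 7. Elovl6 and Acly were low in mice 1 and 13 and high in mice 6 to 8, an order that Scd1 did not share. Of 18 detected genes of fatty acid and triglyceride synthesis, 11 reached 2-fold, at a median pairwise r of 0.26. Regression on Scd1 called 0 of 6798 genes with limma (568 at an unadjusted p under 0.05). Leaving out 1 mouse gave 0 to 3 genes (1 without mouse 2, 2 without mouse 10 and 3 without mouse 14). On simulated data, 50 genes at each r of 0.9, 0.8, 0.6 and 0.4 were set to follow Scd1 at once. The same fit recovered 46, 31, 4 and 2 of them. With so many followers present the adjustment is less strict, so recovery can be lower where few genes follow. A count of 0 thus does not mean that no gene varied with Scd1.

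Of 30 pairs of genes with textbook links, 15 had both genes detected, and 4 of these passed a two-sided permutation test after adjustment over the 15. Hmgcs1 and Sqle correlated at 0.95 (Spearman rho 0.90, adjusted p = 7.50e-05), and at 0.92 without the 2 mice farthest from the median of Hmgcs1. Elovl6 and Acly correlated at 0.93 (rho 0.85, adjusted p = 7.50e-05), and at 0.93 without mice 1 and 13. Idi1 and Cyp51, both of sterol synthesis, correlated at 0.86 (rho 0.92, adjusted p = 1.00e-04), and at 0.81 without mice 6 and 9. Cish and Socs2, inhibitors that growth hormone induces through STAT5, correlated at 0.78 (rho 0.80, adjusted p = 0.00082), and at 0.71 without mice 2 and 10. For the first 2 pairs the unadjusted p of 1e-05 was the smallest that 100000 resamples can give. Cish read 6.13 in mouse 9, a median of 6.68 and 8.04 in mouse 10, and Socs2 was also highest in mouse 10, at 8.20.

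The other 11 pairs did not pass by Pearson r. Mup20 and Cyp2d9, both male-biased, correlated at 0.60 (permutation test, adjusted p = 0.054), while their Spearman rho of 0.64 passed (adjusted p = 0.037). Hspa5 and Dnajb9, chaperones of the endoplasmic reticulum, correlated at 0.57 (rho 0.51, adjusted p = 0.066). Srebf1, the factor that drives lipid synthesis, and Scd1 correlated at 0.04 (rho -0.01, adjusted p = 0.95). Pck1 and G6pc, both of glucose output, correlated at 0.16 (rho 0.01, adjusted p = 0.71). Dbp and Per2, both driven by the clock, correlated at 0.32 (rho 0.41, adjusted p = 0.41), and Cyp2b10 and Cyp2c55, both CAR targets, at -0.45 (rho -0.55, adjusted p = 0.18). Scd1 and Pck1 correlated at 0.50 (rho 0.47, permutation test, adjusted p = 0.13). Pck1 and Igfbp1 correlated at -0.24, Scd1 and Igfbp1 at -0.21, and Pparg and Cidec at 0.01.

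Growth hormone-patterned and male-biased genes varied widely and moved together in part. Of 17 detected, 14 reached 2-fold, against 6.24% of all genes, and their median pairwise r was 0.20, against 0.0044 over all pairs of genes. In mouse 10, 15 of the 17 were above their own means, in mouse 13 14, and in mouse 11 2. Averaged over the 17 genes on the log2 scale, mouse 4 was highest at 0.43, with 12 above their means. Mouse 9 was lowest at -0.38, with 5 above. The share of all genes above their own means in each mouse was not counted. Mup20, a major urinary protein, read 10.13 in mouse 9, a median of 11.33 and 11.93 in mouse 5. Regression on Mup20 called 1 gene, Mup5 (0.0147%), with an r of 0.92 (limma adjusted p = 0.00021). The Mup genes are near copies, so these probes may read shared transcripts. Hsd3b5 and Slco1a1, male-biased genes of the normal liver, were detected on no array.

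Clock output gave a single pair of followers. Dbp, a transcription factor driven by the clock, read 9.86 in mouse 5, a median of 10.77 and 11.35 in mouse 1. Regression on Dbp called 2 genes (0.0294%), both opposite. Avpr1a, the vasopressin receptor of hepatocytes, had an r of -0.92 (limma adjusted p = 0.00038), and Pdk4, which holds back pyruvate oxidation, had -0.85 (limma adjusted p = 0.012). With 1 mouse left out the count was between 1 and 3, and it was 1 without mouse 1, mouse 2 or mouse 5. Of 14 detected clock genes 5 reached 2-fold, at a median pairwise r of 0.09, which was 0.28 with arrays centred on their medians only. With 1 mouse left out and the same 14 genes it was 0.04 to 0.14. It was -0.0021 without mouse 1 where the detection rule was applied anew, which can let other genes of the list in. Npas2, Cry1, Hlf and Bhlhe41 were detected on no array.

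Cyp4a14, a fatty acid omega-hydroxylase induced by PPARa, read 13.85 in mouse 7, a median of 14.38 and 14.56 in mouse 3. Its low mice were 6 to 9, all under 14.00. Regression on Cyp4a14 called 313 genes (4.60%), 143 in the same direction (2.10%) and 170 in the opposite one (2.50%). Same-direction calls held 4 of 12 other PPARa targets and opposite calls 7 of 18 sterol genes. Shfl had an r of 0.92, Aifm2 0.89 and Mon1a 0.88, and Sqor -0.93, Rgs4 -0.93 and Rgn -0.92. With the leading principal component of the arrays as a covariate 5 genes were called, without mouse 7 105 and without mouse 6 167. Regression on Pck1 called 0 genes with limma (646 at an unadjusted p under 0.05). As for Scd1, such a count can miss genes that correlate more weakly.

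**Figure D5:**
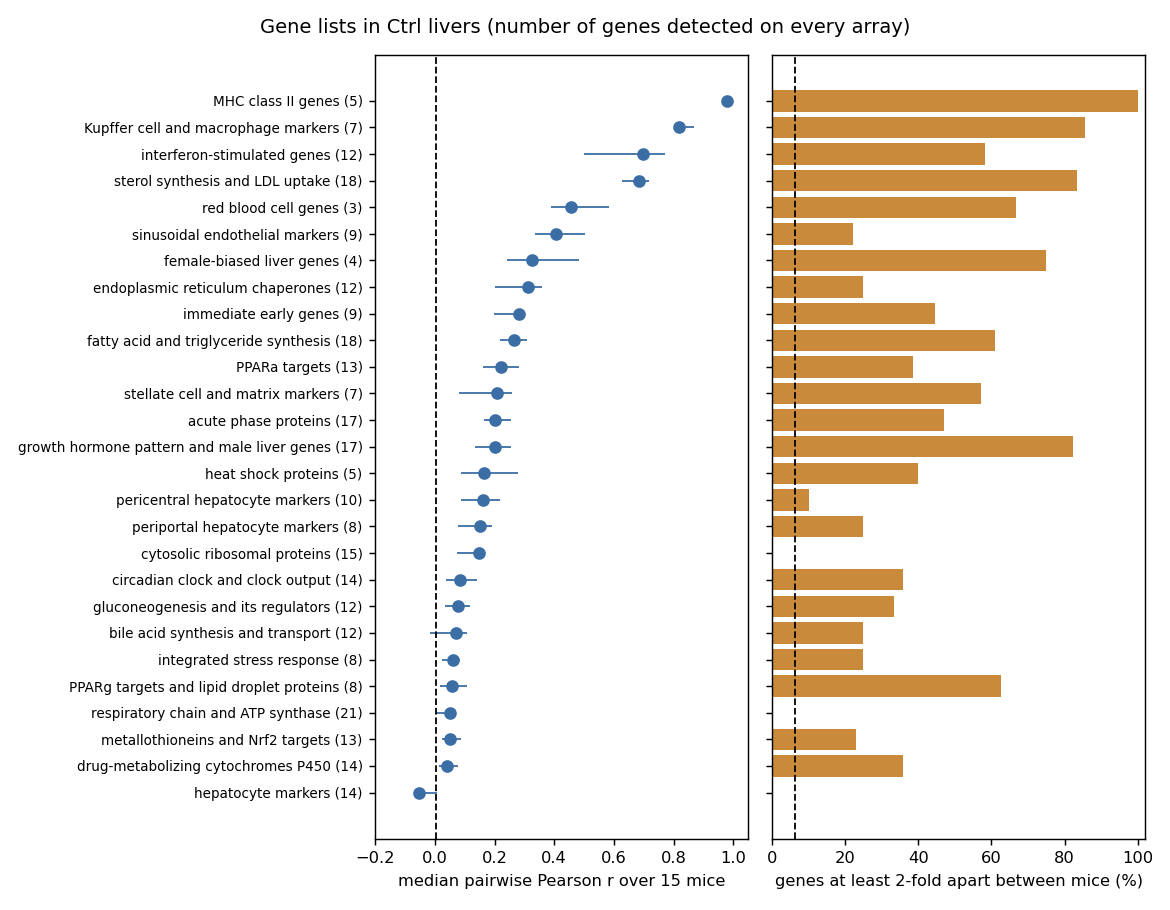
Left, median pairwise Pearson r over 15 Ctrl mice for each gene list (points) with its range when 1 mouse is left out (lines). Right, percent of the list's detected genes that reach 2-fold between the highest and lowest mouse (bars from 0), with dashed lines at the values over all genes, 0.0044 and 6.24%. Class II, Kupffer, interferon and sterol lists lie at 0.68 or above, and hepatocyte, ribosomal and respiratory lists have no bar.

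Lists of other cell types and pathways lay between these ends. Red blood cell genes had a median pairwise r of 0.45 over 3 detected genes, and 0.13 where genes detected on at least 8 arrays entered, with Hba-a1 at 12.31 in mouse 5, a median of 13.19 and 13.54 in mouse 12. Without mouse 5 none of the 3 reached 2-fold, against 2 with it. Sinusoidal endothelial markers had 0.40 over 9 genes, of which Lyve1 and Mrc1 reached 2-fold, and 1 gene without mouse 4 or without mouse 12. Stellate and matrix markers had 4 of 7 at 2-fold, and 1 of 7 without mouse 14. Acute phase proteins had 8 of 17 at 2-fold at a median r of 0.20, with Lcn2, Saa3, Hamp and Orm2 the most variable. Hamp, the iron hormone hepcidin, read 12.30 in mouse 3, a median of 13.40 and 14.11 in mouse 15. Hepatocyte markers had 0 of 14 at 2-fold, near the 6.24% of all genes in a list of this size, and a median r of -0.05, which was 0.07 with arrays centred on their medians only. Drug-metabolizing cytochromes had 5 of 14 at 2-fold (8 with neqc background correction) at 0.04, led by Cyp2c70, Cyp2b10 and Cyp2c29.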

How the data were processed

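Liver RNA was labelled with biotin and hybridized to Illumina MouseRef-8 BeadChips, 1 array per mouse. The deposited table gave, for each probe and array, the mean bead intensity, which the authors exported without normalization from Illumina software (GenomeStudio 2009.2 in the submitters' processing notes), and a detection p-value, also deposited by the authors. The authors' normalized table, read as intensities and put on the log2 scale here, served as an alternative only. Chip, scan date and dissection day are not given in the sources used here.

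Intensities of the 15 Ctrl arrays were quantile normalized and log2 transformed (R 4.3.3, limma 3.58.1). Of 25697 probes, 23978 had 1 gene symbol and 1719 none. Symbols came from the platform annotation and 23962 were updated through RefSeq tables. Genes were read from their brightest probe with a detection p-value under 0.05 on all 15 arrays. Regressions used limma with Benjamini-Hochberg adjustment, after a check on simulated data. Correlations, clusters and permutation tests used Python 3.11.15 with scipy 1.17.1. The array gives no read depth, and the number of arrays limits the precision. P-values are for the association of genes with each other, or with array brightness, over single mice. SDs and ranges were not tested.

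The genes named were the 20 brightest, the 25 most variable, the 10 steadiest above the median signal, up to 4 most variable of each of 34 lists, both genes of the fixed pairs, up to 6 per cluster, the 5 highest and 3 lowest correlations of each regression, and list genes detected on no array. Irf1, Dhcr7, Srebf2, Fcgr4, Fpr2, Eif4ebp3, Usp18 and Clec4f were added for their place in a cluster, a list or a printed sequence, after their values were seen. Mcm10 and Cd163 were likewise added as the genes of their clusters that correlated most with mean raw intensity. Members and lists were chosen with earlier results of these data known. Alternatives changed the normalization, background, detection rule, probe choice, covariates and mice.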

Additional observations from a re-analysis of the deposited data

How the results depend on the processing

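The 424 genes at 2-fold became 928 with neqc background correction and 147 between the second highest and second lowest mouse, and lay between 376 and 419 with 1 mouse left out. The regression on Cyp4a14 called 313 genes, 72 with arrays centred on their medians only, 5 with the leading principal component as a covariate and 105 to 361 with 1 mouse left out (105 without mouse 7, 167 without mouse 6). The regression on C1qb called 90 genes, 208 with median centring, and 61 to 94 with 1 mouse left out. The regression on Hmgcs1 called 18 genes and 11 to 22 with 1 mouse left out (11 without mouse 6 or mouse 13). The regression on Dbp called 2 genes, 1 with median centring, and 1 to 3 with 1 mouse left out. The regression on Scd1 called 0, and 0 to 3 with 1 mouse left out (1 without mouse 2, 2 without mouse 10, 3 without mouse 14). Regression on the mean raw intensity of the array called 4 genes (0.0588%), 1823 with median centring, 0 with neqc, 0 with the mean over a gene's probes, 0 with the number of detected probes in its place, and 0 to 22 with 1 mouse left out (22 without mouse 2, 16 without mouse 11). The cause was not tested. Regressions on Mup20 and Pck1 kept to within 1.5 times their counts under each alternative run. In the regressions only counts were compared between runs, so the sign of single called genes was not followed. The 208 genes called on C1qb with median centring were all in the same direction. The 5 called on Cyp4a14 with the principal component as a covariate were all in the opposite one. No called pair of genes changed sign. Some list medians of pairwise r near 0 did, as for hepatocyte markers (-0.05, and 0.07 with median centring) and integrated stress response genes (0.06, and -0.05 at a detection p-value under 0.01). Several uncalled pairs changed sign with 1 mouse left out. Pck1 and G6pc went from 0.16 to -0.10 without mouse 7. The range was -0.32 to 0.18 for Pck1 and Igfbp1, -0.33 to 0.04 for Scd1 and Igfbp1, and -0.30 to 0.13 for Pparg and Cidec. It was -0.03 to 0.11 for Srebf1 and Scd1, and -0.03 to 0.18 for Cyp7a1 and Cyp8b1. Median centring also raised the median of ribosomal genes from 0.15 to 0.45 and that of respiratory genes from 0.05 to 0.32. The pair Mup20 and Cyp2d9 passed at 0.80 without mouse 7 and at 0.63 with median centring, also without mouse 1, 2 or 11 and given array brightness, and Hspa5 and Dnajb9 at 0.67 without mouse 6 and 0.73 without mouse 11. Of the 25 most variable genes, 20 to 25 stayed in that list with 1 mouse left out. With a detection p-value under 0.01 only 2 class II genes were left. No paired analysis was possible because a single group was described. Dim probes limit the comparison, since a signal near background shrinks differences between mice.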
